A study of Mus musculus with 4 samples.

Results

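The expression of 10 genes for PD-1 ligands and costimulatory molecules was measured by RNA sequencing in mouse peritoneal macrophages. The genes were chosen by name (Pdcd1lg2, Cd274, Cd80, Cd86, Cd40, Icosl, Cd276, Vsir, Havcr2 and Cd200r1), and all 10 were among the 16403 genes with reads in at least 1 library. The macrophages came from C57BL/6 mice given 4% thioglycolate, a sterile irritant, 4 days before the peritoneal lavage. They were left to adhere for 4 h and were starved in DMEM with 0.5% FBS. The mice were either wild-type (WT) or, labelled TIF1a-/-, lacked Trim24 (TIF1a) in the myeloid lineage. In these knockout (KO) mice a floxed Trim24 gene is removed by Cre under the lysozyme M promoter, so cells outside that lineage keep the gene, and the methods name littermates as controls without giving their Cre or flox status. Each genotype was left nontreated or stimulated with IL-4 at 20 ng/mL for 6 h. The mice were several weeks old, and the number of mice behind each library was not given in the sources used here. Each of the 4 groups thus held 1 library. No difference reported here has a replicate check, and each test on reads compares libraries and not conditions.

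T cells need a second signal besides antigen, and macrophages and other antigen-presenting cells give or withhold it through surface proteins of the B7, TNF receptor and related families. CD80 and CD86 engage CD28 to activate a T cell and CTLA-4 to restrain it. PD-L1 (Cd274) and PD-L2 (Pdcd1lg2) engage the inhibitory receptor PD-1, and PD-L2 is known as a marker of IL-4-activated macrophages. IL-4 acts through the transcription factor Stat6, which as a dimer binds a palindrome of TTC and GAA separated by a short spacer.

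The libraries held between 11026033 and 11250099 expected reads, the number of reads that RSEM assigns to a gene. At that depth 3 reads, taken as the floor of detection, correspond to 0.267 to 0.272 CPM, reads scaled to a common library total. Trim24 was listed at 2.55 and 1.48 FPKM (fragments per kilobase of transcript, scaled to the library total) in the nontreat and IL-4 libraries of WT cells, against 0.06 and 0.14 FPKM in those of KO cells. The defining macrophage marker Adgre1 lay between 68.5 and 97.7 FPKM. The sum of 8 macrophage markers was lower in KO cells (8955 and 8320 FPKM) than in WT cells (14906 and 14769 FPKM). It came mostly from Lyz2, the gene that carries the Cre, at 11289 and 10811 FPKM in WT cells. In KO cells Lyz2 was listed at 5193 and 4761 FPKM. No other marker of the 8 was lower in KO cells in both treatments. The part of the Lyz2 difference in the results was not tested. Summed markers of other cells were far lower, at 4.68 to 7.23 FPKM for 8 B-cell markers, 2.92 to 3.03 FPKM for 8 dendritic-cell markers, 1.82 to 3.03 FPKM for 8 T-cell markers (with Trac at 0 in all libraries) and 17.9 to 34.8 FPKM for 8 mesothelial and fibroblast markers. A value of 0, as for Trac, may also mean that the gene was not quantified, since a gene missing from a library was taken as 0. In bulk RNA, fewer cells that express a gene and less of its RNA in each cell cannot be told apart.

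Pdcd1lg2 and Cd274 are neighbours on chromosome 19, and the start sites used for their promoter windows lie 43481 bases apart in GRCm38.p6. That of Cd274 is at 29367438, inside the annotated gene bounds, which begin at 29362107. The sequence at that outer bound was not searched. The promoter windows of both are shown because these genes encode the PD-1 ligands and moved to different extents with IL-4. Each RefSeq window runs from 250 bases before to 50 bases after the start site on the plus strand, at chr19:29410669-29410968 for Pdcd1lg2 and chr19:29367188-29367487 for Cd274. Capitals mark a match to TTCNNNNGAA, the spacing that Stat6 is known to prefer.
Pdcd1lg2: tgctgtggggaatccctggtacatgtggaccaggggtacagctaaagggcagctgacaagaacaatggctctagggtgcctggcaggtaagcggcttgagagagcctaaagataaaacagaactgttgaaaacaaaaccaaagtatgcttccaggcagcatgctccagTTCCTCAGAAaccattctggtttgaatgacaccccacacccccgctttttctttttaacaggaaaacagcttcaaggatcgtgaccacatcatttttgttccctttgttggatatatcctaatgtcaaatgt
Cd274: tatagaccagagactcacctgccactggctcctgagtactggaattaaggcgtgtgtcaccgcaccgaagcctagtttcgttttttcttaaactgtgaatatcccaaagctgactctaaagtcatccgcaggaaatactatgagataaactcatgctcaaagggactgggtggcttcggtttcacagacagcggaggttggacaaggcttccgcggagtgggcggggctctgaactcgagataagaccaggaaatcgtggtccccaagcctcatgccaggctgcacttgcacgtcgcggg
The Pdcd1lg2 window held 1 match, TTCCTCAGAA, from 82 to 73 bases before the start site. No such match was found in the windows of Cd274, Cd80, Icosl, Cd276, Vsir and Havcr2, and windows for Cd86, Cd40 and Cd200r1 were not used here. Of 32841 RefSeq promoter windows of this length, 6.95% held TTCNNNNGAA, which reads the same on both strands. The shorter form TTCNNNGAA was in none of the 7 windows and in 8.30% of all windows. The interferon-response letters GAAANNGAAA, searched on both strands, were in none of the 7 and in 3.44% of all. Such matches describe the letters in these windows, and whether Stat6 binds there was not tested here.

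Levels are given as FPKM, which is per length and can be set side by side between genes, in the order WT nontreat, WT IL-4, KO nontreat and KO IL-4. Vsir, which encodes the inhibitory ligand VISTA, was the highest of the 10 genes in every library. It was listed at 124.57, 71.15, 135.97 and 75.07 FPKM. Cd200r1 and Cd274 came next in every library, and Icosl, Cd276, Cd40 and Pdcd1lg2 were the lowest genes of the nontreat libraries. In WT cells given IL-4 the levels of Cd274 (41.1 FPKM) and Cd200r1 (40.7 FPKM) did not differ beyond their 95% counting intervals. The same held for the neighbours Havcr2, Cd86, Cd40 and Cd80 in that library, between 5.51 and 3.04 FPKM, while Pdcd1lg2 stood between these and the upper 3 genes. In both nontreat libraries the intervals of Cd276, Cd40, Icosl and Pdcd1lg2 overlapped from one to the next. Intervals and floors cover counting error only.

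**Figure D1:**
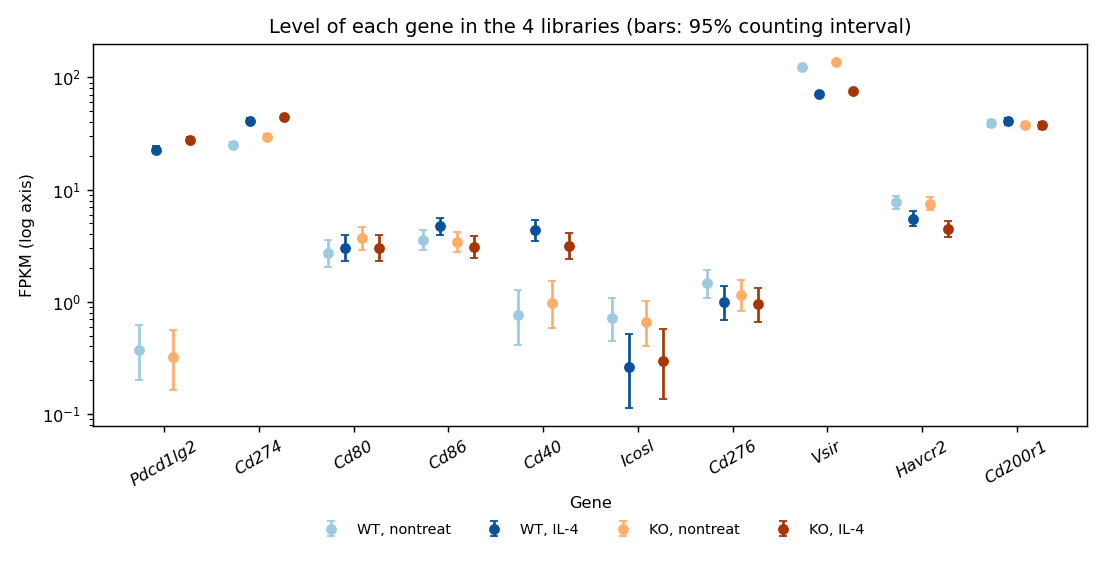
FPKM (log axis) of each gene in the 4 libraries, with bars for the 95% exact Poisson interval of the reads. Pdcd1lg2 lies below 0.4 FPKM in both nontreat libraries and above 20 FPKM in both IL-4 libraries, and Vsir is the highest gene throughout.

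To examine how IL-4 altered these genes, the treated library of each genotype was compared with its nontreat library. A gene was called when Fisher's exact test on reads, adjusted by the Benjamini-Hochberg method over all genes, gave p under 0.05 and the fold exceeded 1.5 on the log2(FPKM + 0.1) scale. This scale understates changes of low genes. In WT cells Pdcd1lg2, Cd274 and Cd40 rose, and Vsir and Icosl fell, which is 3 of 10 genes higher and 2 lower. Over all 15593 genes tested in that pair, 4.91% were called higher and 7.88% lower. In KO cells Pdcd1lg2, Cd274 and Cd40 rose and Vsir and Havcr2 fell, again 3 higher and 2 lower, where 5.29% and 4.03% of 15738 genes were called higher and lower. Over the 9 genes averaging 1 FPKM or more the median log2 ratio was 0.15 in WT cells and -0.14 in KO cells, against -0.01 and 0.01 over all 10532 such genes. The WT ratios of all genes fell with transcript length, and after that trend was removed 804 genes were called higher and 821 lower in place of 766 and 1228. The same members were called with the trend removed, 3 higher and 2 lower in each genotype.

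Pdcd1lg2 (gene ID 58205, chromosome 19 from 29410919 to 29472927 in GRCm38), the gene of PD-L2, had 14, 879, 12 and 1043 reads, or 0.37, 22.7, 0.32 and 27.51 FPKM. Both IL-4 libraries were high and both nontreat libraries were low, near but above the floor of 3 reads. The log2 ratio of IL-4 to nontreat was 5.60 ± 0.38 in WT cells (SE, counting error; Fisher's exact test, adjusted p = 4.11e-233). In KO cells it was 6.04 ± 0.41 (Fisher's exact test, adjusted p = 2.25e-288). Among the 10532 genes averaging 1 FPKM or more, 99.9% had a smaller log2 ratio in each genotype. Summed markers of dendritic cells, which also express PD-L2, were 2.97, 2.92, 2.95 and 3.03 FPKM in the same order. Most of that sum was Ccr7, at 1.93, 1.76, 1.56 and 1.7 FPKM. The part of dendritic cells in the Pdcd1lg2 values was not tested.

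Cd274 (gene ID 60533, chromosome 19 from 29362107 to 29388095), the gene of PD-L1, was listed at 24.77, 41.1, 29.55 and 44.58 FPKM. Its nontreat libraries were already well above those of Pdcd1lg2, and both of its IL-4 libraries were above both of its nontreat libraries. The log2 ratio was 0.73 ± 0.06 in WT cells (Fisher's exact test, adjusted p = 7.11e-37) and 0.59 ± 0.05 in KO cells (adjusted p = 2.29e-27). The KO ratio is a fold of 1.51, at the edge of the threshold, and fell under it with upper-quartile scaling (0.58) or a pseudocount of 1 (0.58). Expected counts of Cd274 were not whole, so a part of its reads was divided with other features.

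Summed over both PD-1 ligands, the level was 25.1 and 63.8 FPKM in WT cells without and with IL-4, and 29.9 and 72.1 FPKM in KO cells. Pdcd1lg2 made up 1.47% of that sum in the nontreat WT library and 35.6% with IL-4, and 1.07% and 38.2% in KO cells. With IL-4, Cd274 thus still held the larger share of PD-1 ligand mRNA in both genotypes.

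**Figure D2:**
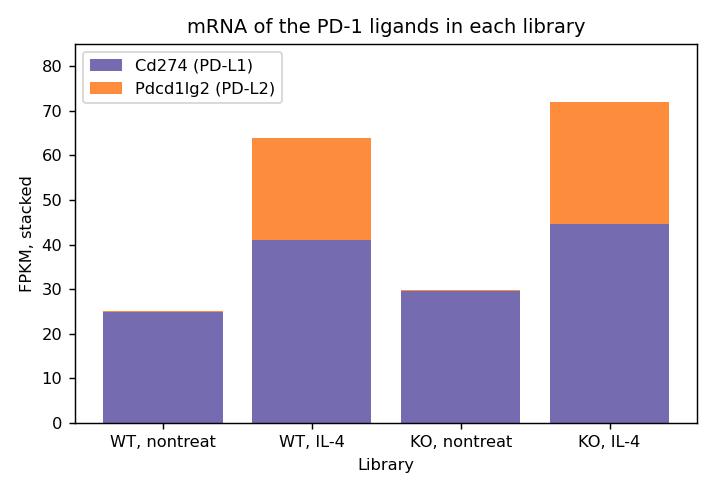
Stacked FPKM of Cd274 and Pdcd1lg2 in each library. The nontreat bars are nearly all Cd274, whereas Pdcd1lg2 forms 35.6% (WT) and 38.2% (KO) of the IL-4 bars.

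The other genes of this stretch of chromosome 19 were examined as well, taking the 4 protein-coding genes on either side, a choice made after the files were examined. Jak2, which encodes a cytokine receptor kinase, rose from 10.13 to 26.43 FPKM in WT cells and from 10.3 to 29.0 FPKM in KO cells. Insl6, beside it, had log2 IL-4 ratios of 0.78 in WT cells, where it was called higher, and 0.42 in KO cells, where it was not. Plgrkt, whose annotated bounds overlap those of Cd274, had ratios of 0.18 and 0.16, and neither was called. On the other side of Pdcd1lg2 the ratios of Ric1 were -0.18 and 0.05 and those of Ermp1 were -0.06 and -0.13, with no call. The log2 ratios of 9930021J03Rik were -0.54 and -0.21, again without a call, and Rln1 and Mlana were listed at 0 in all libraries.

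**Figure D3:**
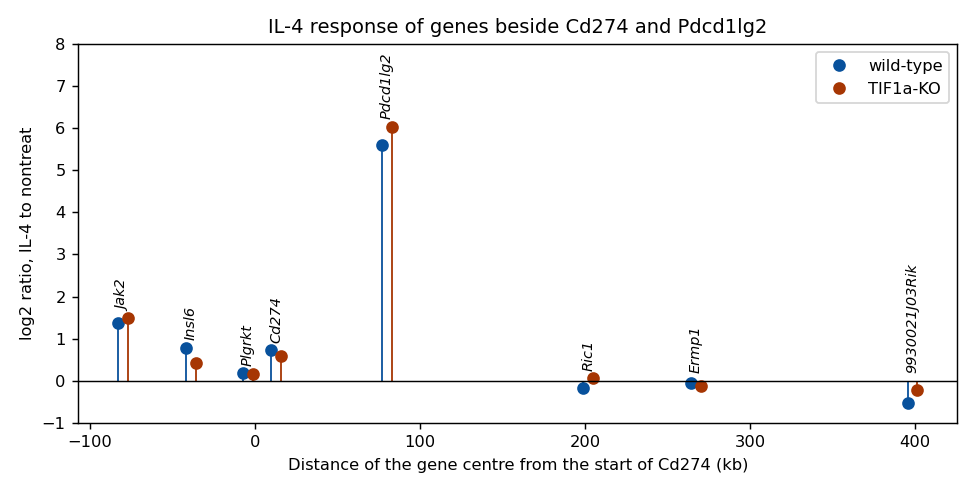
log2 ratio of IL-4 to nontreat for Cd274, Pdcd1lg2 and 6 neighbours with reads, by distance of the gene centre (kb). Distance is from the Cd274 gene bound at 29362107, and the points of both genotypes are set slightly apart. Pdcd1lg2 stands at 5.60 (WT) and 6.04 (KO), Jak2 at 1.37 and 1.48, and Plgrkt, Ric1 and Ermp1 lie near 0.

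Among the CD28 ligands no change with IL-4 was called in either genotype. Cd80 (gene ID 12519, chromosome 16) had 51, 58, 69 and 57 reads, or 2.73, 3.04, 3.69 and 3.05 FPKM, and the 95% counting intervals of all 4 libraries overlapped. Its log2 IL-4 ratio was 0.15 ± 0.28 in WT cells (Fisher's exact test, adjusted p = 0.799) and -0.27 ± 0.26 in KO cells (adjusted p = 0.598). Cd86 (gene ID 12524, chromosome 16) had 100, 136, 96 and 87 reads, or 3.56, 4.74, 3.42 and 3.1 FPKM, with the WT IL-4 library highest. Its log2 IL-4 ratio was 0.40 ± 0.19 in WT cells (Fisher's exact test, adjusted p = 0.0869) and -0.14 ± 0.21 in KO cells (adjusted p = 0.782). Cd80 made up 43.4% and 39.1% of the summed FPKM of both genes in WT cells, and 51.9% and 49.6% in KO cells.

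Cd40 (gene ID 21939, chromosome 2 from 165055614 to 165071654), the TNF receptor family member that receives CD40 ligand from helper T cells, had 14, 82, 18 and 59 reads. Its levels were 0.76, 4.34, 0.98 and 3.17 FPKM, low in both nontreat libraries and higher in both IL-4 libraries. The log2 ratio was 2.37 ± 0.41 in WT cells (Fisher's exact test, adjusted p = 1.01e-11) and 1.60 ± 0.38 in KO cells (adjusted p = 1.71e-05). B cells express CD40 strongly, and the 8 B-cell markers summed to 7.23 and 6.29 FPKM in WT cells and 5.68 and 4.68 FPKM in KO cells, without and with IL-4. Their part in the Cd40 values was not tested.

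Icosl (gene ID 50723, chromosome 10), whose product binds the T-cell receptor ICOS, rested on few reads, 22, 8, 20 and 9. Its levels were 0.72, 0.26, 0.66 and 0.3 FPKM, lower in both IL-4 libraries. The log2 ratio was -1.19 ± 0.58 in WT cells (Fisher's exact test, adjusted p = 0.0329) and -0.93 ± 0.57 in KO cells (adjusted p = 0.183). The WT call was lost with a pseudocount of 1 (-0.45), and Icosl had no value under a minimum of 1 FPKM. Cd276 (gene ID 102657, chromosome 9), the gene of B7-H3, had 52, 36, 41 and 34 reads, or 1.46, 0.99, 1.16 and 0.96 FPKM. Its log2 ratios of -0.52 ± 0.31 and -0.25 ± 0.33 were not called (Fisher's exact test, adjusted p = 0.202 and 0.733), and the intervals of the 4 libraries overlapped.

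Vsir (gene ID 74048, chromosome 10 from 60346851 to 60430294) was, with Icosl, one of the 2 genes called lower in WT cells, and its values rest on 6732, 3922, 7341 and 4051 reads. Both IL-4 libraries were below both nontreat libraries by far more than counting error. The log2 ratio was -0.81 ± 0.03 in WT cells (Fisher's exact test, adjusted p = 6.52e-175) and -0.86 ± 0.03 in KO cells (adjusted p = 3.87e-209). Its transcripts average 4845 bases, and with the length trend removed the WT ratio was -0.61, still past 1.5-fold, and the KO ratio was -0.82.

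Havcr2 (gene ID 171285, chromosome 11), the gene of the inhibitory receptor TIM-3, was listed at 7.73, 5.51, 7.51 and 4.47 FPKM, lower in both IL-4 libraries. The log2 ratio was -0.48 ± 0.15 in WT cells, under the fold threshold (Fisher's exact test, adjusted p = 0.00355), and -0.74 ± 0.16 in KO cells, where it was called (adjusted p = 1.35e-05). Cd200r1 (gene ID 57781, chromosome 16), an inhibitory receptor of myeloid cells for CD200, was listed at 39.07, 40.7, 37.71 and 37.46 FPKM, with overlapping intervals in all 4 libraries. Its log2 ratios were 0.06 ± 0.07 and -0.01 ± 0.07 (Fisher's exact test, adjusted p = 0.631 and 1). Reads of Cd200r1 may be divided with its relative Cd200r4, which was listed at 29.9 to 37.7 FPKM, and its expected counts were not whole.

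**Figure D4:**
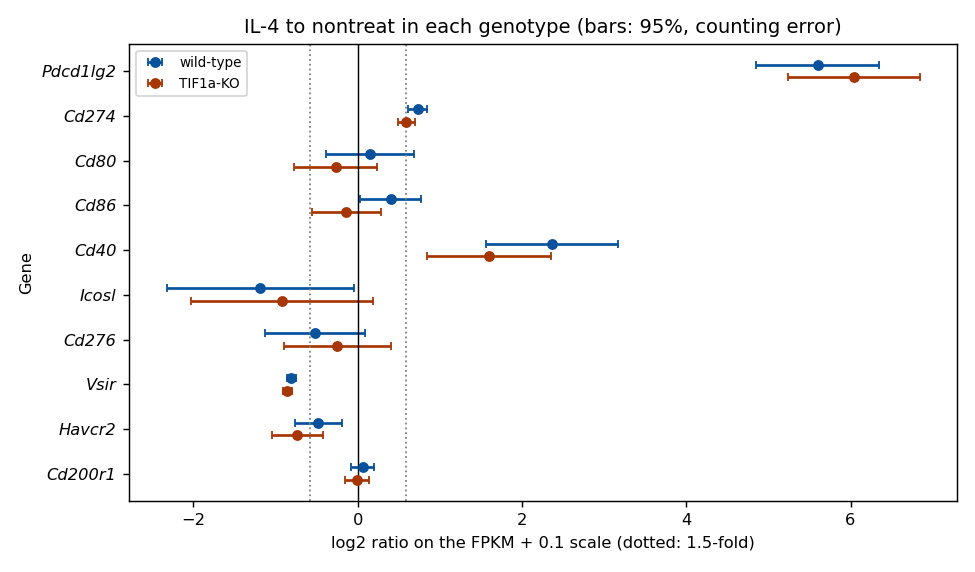
log2 ratio of IL-4 to nontreat for each gene in WT and KO, with bars of 95% counting error and dotted lines at 1.5-fold. Pdcd1lg2 and Cd40 lie far to the right in both genotypes, Cd274 just past the line, and Vsir past it on the left.

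These tests hold counting error only. When the biological coefficient of variation was assumed to be 0.2, edgeR's exact test left Pdcd1lg2 and Cd40 in WT cells and Pdcd1lg2 in KO cells, and Cd40 in KO cells had an adjusted p of 0.124. All 4 libraries were also fitted with additive effects of genotype and IL-4 (edgeR's quasi-likelihood test, 1 residual degree of freedom), where a call needed an adjusted p under 0.05 and no fold. The fit takes any difference in IL-4 response between WT and KO cells as error, so the genotypes stand in for replicates. For Pdcd1lg2 and Cd274 the size of its adjusted p changed by many orders of magnitude with the filter or scaling used. In that fit Pdcd1lg2 (log2 6.19, edgeR adjusted p = 8.02e-12), Cd274 (0.67, 8.44e-05) and Cd40 (2.12, 0.000101) were called higher with IL-4. Vsir (-0.82, edgeR adjusted p = 5.94e-06), Havcr2 (-0.60, 0.00427) and Icosl (-1.30, 0.037) were called lower. These are 3 of 10 genes in each direction, against 12.0% higher and 13.3% lower among 11791 genes. By DESeq2 the call was lost for Havcr2 (adjusted p = 0.182) and Icosl (adjusted p = 0.559), and in edgeR without the filter on low counts it was lost for Icosl (adjusted p = 0.109).

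Whether loss of Trim24 altered these genes was assessed by comparing KO with WT libraries in each treatment. In the nontreat pair 0 of 10 genes were called, where 0.839% of 15623 genes were called higher and 0.742% lower. At an unadjusted p under 0.05 (Fisher's exact test) there were 2 genes, Cd274 and Vsir, which also passed the adjusted p and missed only the fold. Cd274 was 24.77 FPKM in WT cells and 29.55 FPKM in KO cells, a log2 ratio of 0.25 ± 0.06 (Fisher's exact test, adjusted p = 0.00128). Vsir had a log2 ratio of 0.13 ± 0.02 (adjusted p = 1.29e-05). For the other 8 genes the log2 ratios ran from -0.31 (Cd276) to 0.42 (Cd80), and with 12 to 22 reads per library for Pdcd1lg2, Cd40 and Icosl only large differences could have been detected.

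With IL-4, Cd86 was called lower in KO cells and none of the 10 genes was called higher. Among 15573 genes 0.764% were called lower and 3.05% higher. Cd86 was listed at 4.74 FPKM in WT cells and 3.1 FPKM in KO cells, a log2 ratio of -0.60 ± 0.20 (Fisher's exact test, adjusted p = 0.0132) and a fold of 1.51. In this pair the log2 ratios of all genes rose with transcript length (Spearman's rho of 0.518 across genes, which are not independent replicates). With the trend removed Cd86 was at -0.57, under 1.5-fold (exact binomial test, adjusted p = 0.0319), and the genes called over the whole table went from 475 higher and 119 lower to 221 and 96. Cd86 also missed the fold with a pseudocount of 1 (-0.49).

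Pdcd1lg2 with IL-4 was listed at 22.7 FPKM in WT cells and 27.51 FPKM in KO cells, a log2 ratio of 0.28 ± 0.07 (Fisher's exact test, adjusted p = 0.000315) that was 0.23 with the length trend removed. It stayed under 1.5-fold in both cases. Cd274 had a log2 ratio of 0.12 ± 0.05 (adjusted p = 0.0803), Cd40 of -0.44 ± 0.25 (adjusted p = 0.239) and Havcr2 of -0.30 ± 0.17 (adjusted p = 0.236). The ratio of Vsir turned from 0.08 to -0.09 on removal of the trend, and neither value reached 1.5-fold. In the additive fit 0 of the 10 genes had a genotype effect by edgeR's quasi-likelihood test, 0 at an unadjusted p under 0.05 and 0 by DESeq2, where edgeR called 1.29% of 11791 genes higher and 0.373% lower in KO cells. Those shares are 152 and 44 genes, and became 331 and 163 with upper-quartile scaling and 399 and 225 with the length trend as an offset. DESeq2 gave no adjusted p for Icosl.

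**Figure D5:**
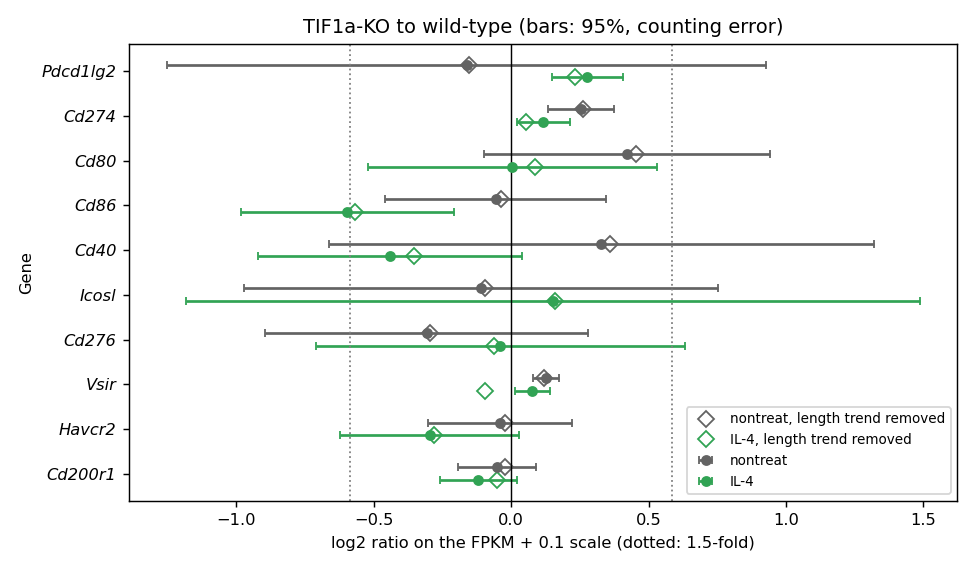
log2 ratio of KO to WT for each gene without and with IL-4, with bars of 95% counting error, open diamonds for values with the length trend removed and dotted lines at 1.5-fold. Cd86 with IL-4 touches the left line and moves inside it once the trend is removed.

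The difference of the IL-4 responses, KO minus WT, was tested for each gene against counting error on log2 counts (normal approximation, Benjamini-Hochberg adjustment). Of the 10 genes 0 were called and 0 had an unadjusted p under 0.05, where 1.78% of 15185 genes were called with a larger ratio in KO cells and 0.303% with a smaller one. For Cd86 the difference was -0.55 (95% counting interval, -1.11 to 0.0042; adjusted p = 0.279). For Cd40 it was -0.79 (-1.90 to 0.31), and for Pdcd1lg2 0.49 (-0.61 to 1.59), and both intervals reached past 1.5-fold. That of Vsir was narrow, -0.05 (-0.13 to 0.03), and became -0.21 with the length trend removed, past the adjusted p (1.88e-05) but below 1.5-fold. That of Cd274 was -0.14 (-0.29 to 0.02). The calls of Icosl in WT cells alone and of Havcr2 in KO cells alone were likewise not shown to differ, with differences of 0.32 (-1.27 to 1.91) and -0.26 (-0.68 to 0.16).

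Other ligands and inhibitory molecules of antigen-presenting cells were described with a list of 38 genes, of which 35 had reads. In WT cells 1 was called higher with IL-4 and 5 lower, and in KO cells 1 higher and 4 lower. The shares over all genes were 4.91% higher and 7.88% lower in WT cells and 5.29% and 4.03% in KO cells. Cd47, the signal that restrains phagocytosis, rose from 32.8 to 66.6 FPKM in WT cells and from 32.6 to 63.2 FPKM in KO cells. Cd24a, a ligand of Siglec receptors, fell from 31.6 to 8 FPKM and from 26.3 to 6.63 FPKM. Cd200, the ligand of Cd200r1, was listed at 48.5, 29.9, 68.5 and 45.6 FPKM, and it fell with IL-4 in both genotypes. It was also the 1 gene of the list called higher in KO cells with IL-4 (Fisher's exact test, adjusted p = 1.34e-18), where 3.05% of all genes were. In the nontreat pair 0 of the list were called, against 0.839% higher and 0.742% lower over all genes. There the log2 ratio of Cd200 was 0.50, under the fold threshold (Fisher's exact test, adjusted p = 7.27e-19). Tnfrsf14, the receptor HVEM, was called lower in both genotypes. Ceacam1 was called lower in WT cells (log2 ratio -0.70) and missed the fold in KO cells (-0.47), and Pirb was called lower in KO cells (-0.61) and missed the fold in WT cells (-0.49), and neither difference between genotypes was tested here. Ildr2, which was under 1 FPKM and is named after its values were seen, fell in WT cells from 35 to 6 reads. The median log2 IL-4 ratio of the 21 genes with at least 1 FPKM was -0.13 in WT cells and -0.11 in KO cells.

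A second list held 36 genes of IL-4, interferon, CD40 and NF-kB signalling and of PD-L1 stability, all with reads. With IL-4, 8 were called higher and 4 lower in WT cells, and 8 higher and 1 lower in KO cells, beside the same shares over all genes (4.91% and 7.88% in WT cells, 5.29% and 4.03% in KO cells). The transcription factors Batf3 and Irf4 had the largest ratios of the list in both genotypes, Batf3 from 1.19 to 44.6 FPKM and from 2.9 to 47.5 FPKM, and Irf4 from 0.57 to 15.4 FPKM and from 0.84 to 22.8 FPKM. Irf1, a known activator of Cd274 downstream of interferon, rose in WT cells from 22.1 to 55.8 FPKM and in KO cells from 26.6 to 49.0 FPKM. Traf5, an adaptor of CD40, rose in WT cells from 6.11 to 12.5 FPKM and in KO cells from 6.84 to 14.5 FPKM. Jak2, Myc and Cebpb were also called higher in both genotypes. Batf was called in WT cells (log2 ratio 0.60) and missed the fold in KO cells (0.54). Nfkb1 was called in KO cells (0.68) and missed the fold in WT cells (0.30). Il13ra1 was called lower in both genotypes. Traf1 (-0.66 in WT and -0.55 in KO cells), Traf3 (-0.80 and -0.45) and Cmtm4 (-1.19 and -0.33) were called lower in WT cells alone. No test of a difference between genotypes is given for these genes. With the length trend removed 7 were called higher and 2 lower in WT cells, where Traf1, Traf3 and Batf lost their calls, and 8 higher and 0 lower in KO cells. Cmtm6, which stabilises PD-L1 protein and is named after its values were seen, was listed at 29.0, 27.0, 28.0 and 29.9 FPKM with no call. The median log2 IL-4 ratio of the 35 genes averaging 1 FPKM or more was -0.0026 in WT cells and 0.18 in KO cells. In the nontreat pair Myc was the 1 gene of the list called lower in KO cells, where 0.742% of all genes were. With IL-4, Cmtm4 was the 1 gene called higher, where 3.05% of all genes were. Its log2 ratio of 0.93 became 0.60 with the length trend removed and was still called.

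The genes most like Pdcd1lg2 over the 4 libraries, by Euclidean distance of centred log2(FPKM + 0.1) values among 7452 genes averaging 5 FPKM or more, were Tmem26 (distance 0.419), Sprr2a3 (0.582) and Chil3 (0.863). Tmem26 was listed at 1.36, 95.8, 1.56 and 127 FPKM. Sprr2a3 belongs to a family of near-identical genes, so its value is uncertain. For Cd86 the nearest were Macrod1 (0.0418), the transcribed pseudogene Gm7367 (0.0966) and Uqcc2 (0.0972). With 4 libraries such a distance is a description only.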

How the data were processed

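Total RNA of 4 macrophage libraries was sequenced on a HiSeq instrument. The authors aligned the reads with Bowtie against GRCm38 (mm10), and RSEM estimated gene levels, with versions not given in the sources used here. The deposited tables hold expected counts and FPKM per gene, the latter scaled by the authors for effective length and library total. A gene missing from a library was taken as 0. NCBI gene IDs were matched to symbols in a RefSeq table of GRCm38.p6 (16365 of 16403).

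Samples were grouped by their labels, 1 library per group. Expected counts were rounded for count tests. Library pairs were compared by two-sided Fisher's exact tests (scipy 1.17.1) with Benjamini-Hochberg adjustment over all genes that had reads in either library. A call needed both a fold over 1.5 and an adjusted p below 0.05, as in the study's methods. For its list of IL-4-regulated genes the study used other cutoffs, so calls here cannot be set against that list directly. Ratios are on the log2(FPKM + 0.1) scale. The additive fit used edgeR 4.0.16 (TMM, filterByExpr, quasi-likelihood), with calls on the adjusted p alone. A lowess trend (fraction 0.3) of log2 values over log2 transcript length was removed as an alternative, with exact binomial tests. Other alternatives were pseudocounts, scalings, thresholds, DESeq2 1.42.0 and limma 3.58.1. Promoter windows were read from a RefSeq table of GRCm38.p6. The tests were checked on simulated counts, which for the library pairs and the difference of responses held counting error only. That check therefore cannot show how often variation between mice or libraries leads to a call.

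The 10 genes, lists and tests were chosen with earlier results of these data known. Named list genes were those called in at least 1 pair that averaged 1 FPKM or more. The 3 nearest genes by distance were named for Pdcd1lg2 and Cd86.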

Additional observations from a re-analysis of the deposited data

How the results depend on the processing

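No paired analysis was possible because the labels give no replicate numbers and each group holds 1 library. The additive fit carries genotype as a term beside IL-4. The alternatives for the values of single genes were partly chosen after seeing the data. The calls of Pdcd1lg2 held under every alternative tried for the IL-4 pairs. In WT cells the 2 genes called lower became 1 with a fold of 2, 1 with a pseudocount of 1, 1 with a minimum mean of 1 FPKM and 0 with an assumed coefficient of variation of 0.2. In KO cells the 2 genes called lower became 0 with a fold of 2 and 0 with the assumed variation, which also left 1 of the 3 called higher. The 3 genes called higher in WT cells became 2, without Cd274, with a fold of 2 or the assumed variation. Those called higher in KO cells became 2, again without Cd274, with a fold of 2 or a pseudocount of 1. The 1 gene called lower in the IL-4-treated KO, Cd86, became 0 with a fold of 2, a pseudocount of 1, the length trend removed or the assumed variation. In the additive fit DESeq2 called 1 of 3 lower genes and edgeR without a filter 2, and over all genes 622 higher and 640 lower with IL-4 where edgeR called 1419 and 1568, and without a filter edgeR called 870 and 805. For genotype edgeR called 152 higher and 44 lower over all genes, DESeq2 60 and 8, limma 237 and 156, and edgeR without a filter 18 and 6. Values that changed sign were all small and uncalled. They were Cd200r1 with IL-4 in WT cells (-0.0142) and in the additive fit (-0.0178) with the length trend removed, Cd80 in the IL-4-treated genotype pair by TMM (-0.0145) and upper-quartile scaling (-0.0380), Vsir in that pair with the trend removed (-0.0936), and the additive genotype effect of Icosl by DESeq2 (0.0204) and limma (0.0212). Beyond the trend removal itself, the cause of these shifts was not tested. The order of the 10 genes by level was the same in all 40 library-by-gene ranks with CPM per kilobase of listed length. That measure uses the same reads as FPKM and nearly the same length, so this is no independent check. Depth limits Icosl, Cd276, Cd40, Cd80 and the nontreat levels of Pdcd1lg2, which rest on under 100 reads in each library concerned. It also limits Cd86, which had 96 and 87 reads in the KO libraries without and with IL-4. The genotype call of Cd86 with IL-4 thus rests on 87 reads in KO against 136 in WT cells.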

Other observations

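Of 15 costimulatory and inhibitory receptor genes of T cells, some of which pair with the 10 molecules and others with other ligands, 14 had reads in at least 1 library and only Cd28, the receptor of CD80 and CD86, reached a mean of 1 FPKM. Cd28 was listed at 5.24 FPKM in nontreat WT cells against 1.49 FPKM after IL-4, and at 5.85 against 1.85 FPKM in KO cells, log2 ratios of -1.75 and -1.61 that were called in both genotypes by Fisher's exact test. The T-cell markers Cd3e (0.25, 0.06, 0.13 and 0.19 FPKM) and Lck (0.52, 0.64, 0.54 and 0.48 FPKM) were below Cd28 in each library, the 8 T-cell markers summed to between 1.82 and 3.03 FPKM, and Trac was at 0 in every library. Trac at 0 may also mean that it was not quantified, and the part of T cells in the Cd28 values was not tested. Ctla4 was listed at 0 in all libraries, and Pdcd1 at 0.05 FPKM in the nontreat WT library and at 0 in the others. Cd200 and its receptor gene Cd200r1 were both listed above 29 FPKM in every library.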
